A study of Mus musculus with 111 samples.

Results

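Gene expression was described in the negative fraction of the striatum of R6/2 mice at 12 weeks of age. The negative fraction holds the sorted cells that carried neither GLT1, the glutamate transporter on the surface of astrocytes, nor CD11b, an integrin chain on the surface of microglia. The samples were chosen by their labels alone: 6 R6/2 samples (11, 13, 15, 17, 19 and 21) and 5 wild-type (WT) samples (12, 14, 16, 18 and 20), which make 11 samples beside 100 others of the series. R6/2 mice express exon 1 of human huntingtin, with an expanded CAG repeat, from a transgene. WT mice carry no transgene. Mice were perfused before dissection, the subventricular zone was removed, and each sample is a pool of the striata of 1 litter and genotype. No single animal can be followed, and p-values measure the spread between pools, part of which may be technical. No strain, sex or repeat length is given in the labels.

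Other groups served for comparison. They were 5 R6/2 and 5 WT samples of the negative fraction at 6 weeks, and 6 R6/2 and 5 WT samples of the astrocyte fraction (GLT1-positive, CD11b-negative) at 12 weeks. From the zQ175 model, whose own Htt gene carries the expansion, 4 zQ175 and 4 WT samples of the negative fraction at 12 months were used. The zQ175 fits also held 4 zQ175 and 4 WT samples of that fraction at 6 months. The fit of the R6/2 effect in astrocytes also held 5 R6/2 and 5 WT astrocyte samples at 6 weeks. Marker levels were also read in 6 R6/2 and 5 WT samples of the microglia fraction (CD11b-positive) at 12 weeks. Values are log2 array signal, fold changes are on the log2 scale (R6/2 minus WT) with their standard error, and genes past an adjusted p of 0.05 in limma are called higher or lower. One probe set stood for each of 18194 genes, and 12480 genes passed a filter on dim signal (mean of at least 5.60) and were tested. A gene that passes mainly through the group where it is high is favoured by this filter. The deposited table has no detection calls, so a level under 5.60 was not shown to be above background.

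Huntington's disease is caused by an expanded CAG repeat in huntingtin, and the medium spiny neurons of the striatum are the cells best known to suffer from it. The cells that neither antibody marks in a dissociated striatum include the endothelium and the mural cells of vessels, fibroblasts, the oligodendrocyte lineage, and neurons. Astrocytes take up glutamate and buffer potassium, mural cells wrap capillaries and arterioles, and the endothelium forms the blood-brain barrier.

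The label was checked against marker genes in 39 WT samples at 6 weeks, 6 months and 12 months, which leave out the samples compared here. A gene was called enriched in a fraction when it was higher there than in each of the other 2 by a log2 difference of at least 1 at an adjusted p below 0.05. Of the endothelial markers 18 of 21 were enriched in the negative fraction, as were 12 of 13 mural markers, 7 of 9 fibroblast markers and 11 of 13 young neuron genes. Other lists had fewer: 5 of 13 pan-neuronal markers, 4 of 18 medium spiny neuron genes and 4 of 10 oligodendrocyte precursor markers. For border macrophages and blood cells it was 4 of 12, and for ependyma and choroid plexus 1 of 9. None of the 15 oligodendrocyte markers was enriched in 1 fraction alone. In WT samples at 12 weeks their mean level was 12.37 in the astrocyte fraction and 11.81 in the negative fraction. Of the astrocyte markers, 23 of 25 were enriched in the astrocyte fraction, and 17 of 18 microglia markers in the microglia fraction. Itgam, which encodes CD11b, was listed between 2.75 and 3.36 in the R6/2 samples and between 3.05 and 3.32 in the WT samples, below the level needed for a test. The mouse Htt probe set was at 8.09, 8.27 and 9.19 (lowest, median and highest) in R6/2 samples, against 7.97, 8.27, 8.30, 8.06 and 8.17 in WT samples. It does not check the human transgene.

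Among the samples, correlations over all genes ran from 0.971 to 0.995 within a genotype and from 0.954 to 0.981 between genotypes. R6/2 sample 11 was the nearest to WT, at 0.968 to 0.981. WT samples 12 and 20 had no Y-linked signal: Eif2s3y, a Y-linked gene, had a median of 11.33 over the R6/2 samples, all of which expressed it, and was at 3.55, 11.14, 10.61, 10.69 and 2.98 in WT samples 12, 14, 16, 18 and 20.

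In the negative fraction at 12 weeks, 3268 of 12480 tested genes were called (26.2%), 1929 of them higher in R6/2 (15.5%) and 1339 lower (10.7%). Beyond 2-fold, 713 were higher and 429 lower. The median log2 fold change of all tested genes was 0.02. The R6/2 and WT samples did not overlap for 774 genes that were higher (6.2%) and 405 that were lower (3.25%). In bulk samples, fewer cells of a type and less RNA per cell cannot be told apart, which touches every result below.

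The genes split by where they are normally expressed. Of 894 tested astrocyte-enriched genes, 483 rose (54%) and 35 fell (3.91%), with a median of 0.65. Of the 11586 other tested genes, 1446 rose (12.5%) and 1304 fell (11.3%), with a median of 0.00. So astrocyte-enriched genes were 483 of the 1929 genes that rose, and 1446 lay outside that class. Of 1170 genes enriched in the negative fraction itself, 70 rose and 434 fell (37.1%), with a median of -0.58. Of 1048 microglia-enriched genes 98 rose and 248 fell (23.7%), and of the 9368 remaining genes 1278 rose (13.6%) and 622 fell (6.64%). The mean level of the astrocyte-enriched genes was 7.14, 7.67, 7.71, 7.75, 7.80 and 7.88 in the R6/2 samples, against 6.78, 6.81, 6.84, 7.01 and 6.97 in the WT samples. All R6/2 samples lay above all WT samples, with sample 11 the lowest of them.

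**Figure D1:**
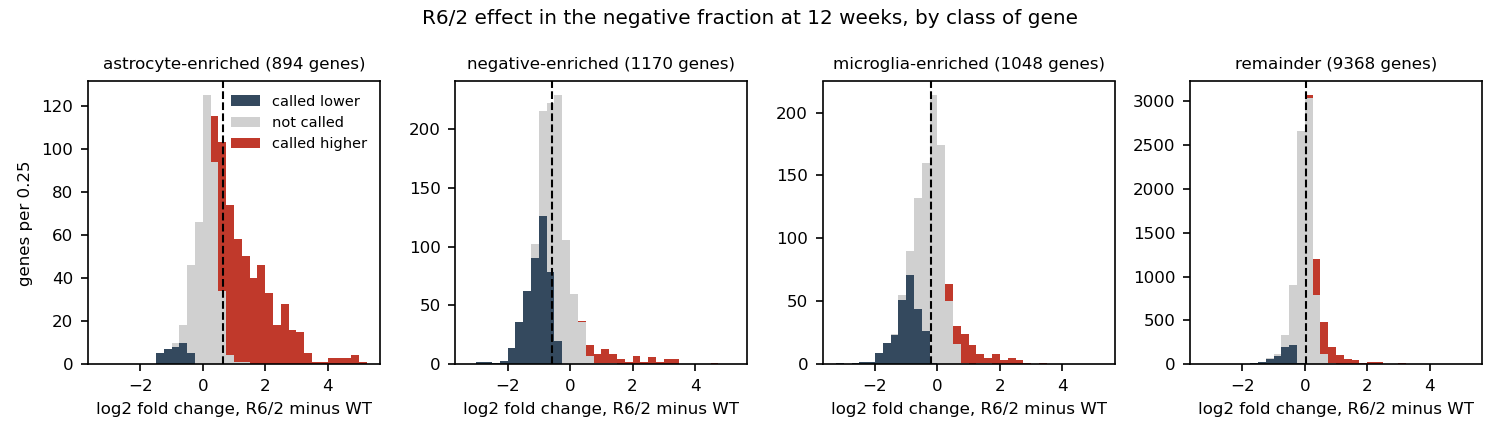
Log2 fold change of R6/2 minus WT in the negative fraction at 12 weeks (x axis) against the number of genes per 0.25 (y axis), in 4 classes of tested genes. Bars are stacked by call (blue lower, grey not called, red higher) and dashed lines mark the medians, which lie at 0.65 for astrocyte-enriched, -0.58 for negative-enriched, -0.20 for microglia-enriched and 0.04 for the remaining genes.

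The astrocyte markers, 23 of 25 of which belong to the astrocyte-enriched class just described, were mostly higher. Of 25 markers tested, 23 rose and none fell, with a median of 2.09, and 14 had no overlap between R6/2 and WT samples. Aldoc, a glycolytic aldolase of astrocytes, was at 11.38, 12.22 and 12.38 (lowest, median and highest) in R6/2 samples, against 8.06, 8.45, 7.43, 8.87 and 7.58 in WT samples (4.01 ± 0.28, adjusted p = 5.4e-09 in limma). Clu, the secreted chaperone clusterin, rose by 2.66 ± 0.21 and S100b, a calcium-binding protein, by 2.77 ± 0.23. Slc1a2, which encodes GLT1 itself, was at 9.92, 10.60 and 10.94 in R6/2 samples, against 9.56, 8.78, 9.57, 10.23 and 9.57 in WT samples (1.02 ± 0.23, adjusted p = 0.00249). WT sample 18, at 10.23, lay within the R6/2 range. Glul, glutamine synthetase, which also lies outside the astrocyte-enriched class, was at 12.88, 13.01 and 13.17 in R6/2 samples and at 12.97 to 13.18 in WT samples and was not called. Gja1, the gap junction protein connexin 43, rose by 0.40 ± 0.13.

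The mean level of the astrocyte markers was lower in the 12-week WT samples than in the 12-week R6/2 samples and than in both genotypes at 6 weeks. It was 9.66, 10.82, 10.73, 10.84, 10.67 and 10.50 in the R6/2 samples, against 8.63, 8.55, 8.31, 8.83 and 8.37 in the WT samples. At 6 weeks it averaged 10.30 ± 0.14 in R6/2 and 9.97 ± 0.52 in WT samples (SD, n = 5 each). Single 6-week samples of both genotypes ran from 9.29 to 10.48. The 12-week R6/2 sample 11 lay within that range, the other 12-week R6/2 samples above it at 10.50 to 10.84, and the 12-week WT samples below it. In the WT negative fraction it averaged 8.80 ± 0.35 at 6 months and 9.59 ± 0.71 at 12 months (SD, n = 4 each). The 12-week WT samples, at 8.31 to 8.83, overlapped the WT samples at 6 months. In the sorted astrocytes at 12 weeks it averaged 12.40 ± 0.11 in R6/2 (n = 6) and 12.57 ± 0.03 in WT (n = 5).

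The astrocyte marker level moved with genotype, and its part in the other results was measured only by a fit with the mean of these markers as a covariate. With it, 56 genes were called (0.449%), 37 higher and 19 lower. The covariate separated R6/2 from WT at 12 weeks with no overlap, so marker level and genotype cannot be told apart in it. Of all 12480 tested genes 11586 lay outside the astrocyte-enriched class, and of the 56 genes 42 did, a smaller share. They include Cntn6 (4.66 ± 0.88), Galnt13 (3.81 ± 0.79), Acan (3.41 ± 0.71) and Tmem59l (3.09 ± 0.58) among those higher, and Npnt (-2.71 ± 0.50) and Col1a1 (-2.06 ± 0.37) among those lower.

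**Figure D2:**
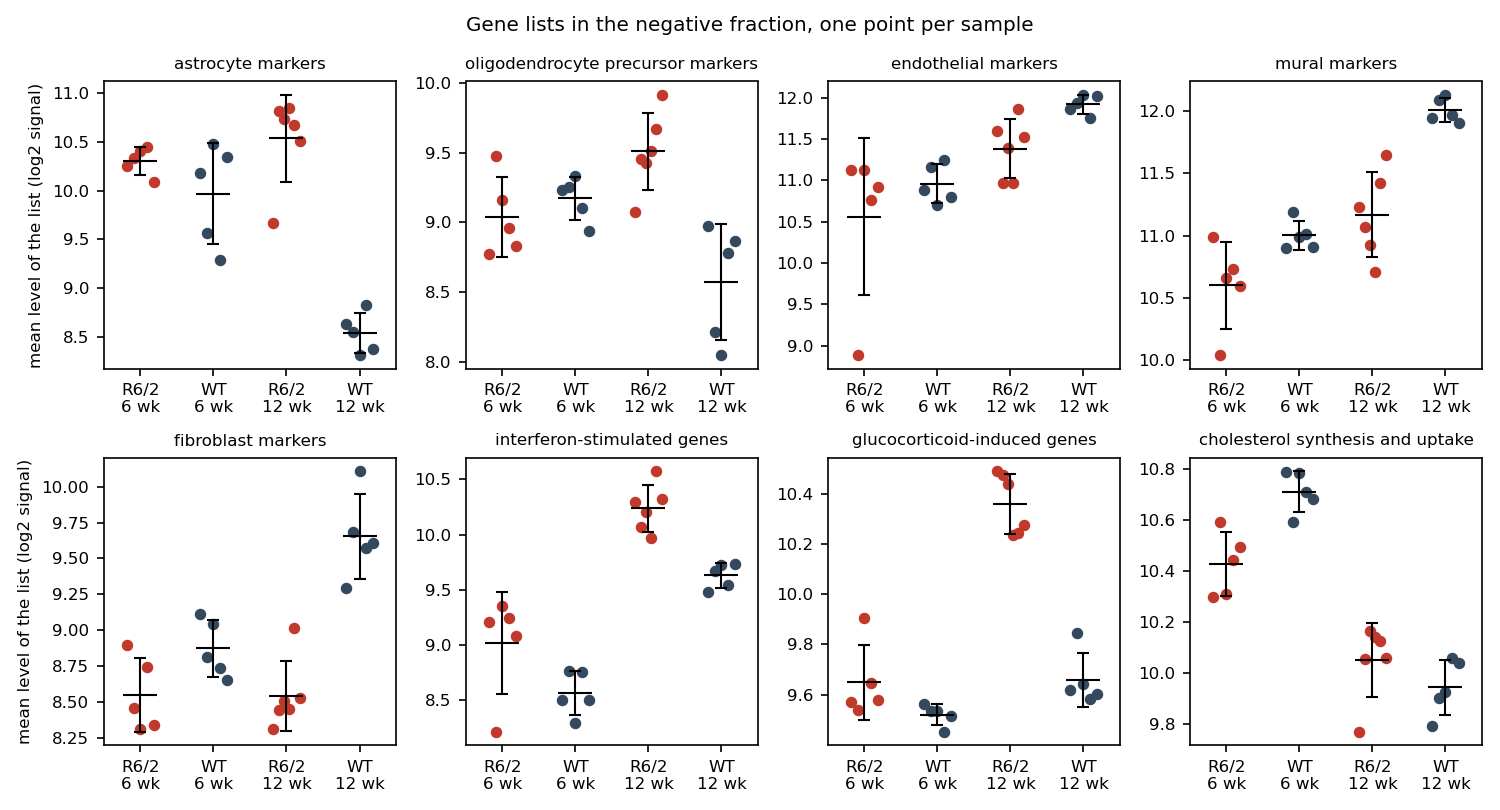
Mean log2 level of 8 gene lists (y axes, scaled per panel) in each sample of the negative fraction, for R6/2 and WT at 6 and 12 weeks (x axis). Points are samples, and bars are the mean and SD. Astrocyte markers lie at 9.66 to 10.84 in R6/2 and 8.31 to 8.83 in WT at 12 weeks, and endothelial markers of R6/2 sample 7 at 6 weeks lie at 8.88.

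Within the astrocyte-enriched class, the largest fitted rises without overlap were those of Scel, Gabrb1, Slc39a12, Pla2g7 and Brinp3, with log2 fold changes from 4.75 to 5.22. Scel, which encodes sciellin, was at 8.46, 8.55 and 9.33 in R6/2 samples, against 4.70, 3.09, 3.38, 2.79 and 3.67 in WT samples (5.22 ± 0.32, adjusted p = 2.56e-09). Slc39a12, a zinc transporter, was at 8.03, 10.17 and 10.48 in R6/2 samples, against 6.54, 6.00, 3.92, 3.89 and 4.43 in WT samples. Scel was below 5.60 in every WT sample and Slc39a12 in 3 of 5, so the sizes of these fold changes rest on WT signal not shown to be above background and their order is not settled. R6/2 sample 11 was the low one for Slc39a12. Gabrb1, a subunit of the GABA-A receptor, rose by 4.94 ± 0.57, Pla2g7, the platelet-activating factor acetylhydrolase, by 4.82 ± 0.47, and Brinp3 by 4.75 ± 0.30. The WT mean of Brinp3 was below 5.60 too, which leaves its size open in the same way.

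The 35 astrocyte-enriched genes that fell ran against their class. The 5 with the largest falls and no overlap were Nr1d1, Steap3, Lama3, Ikbke and Slc25a35. Nr1d1, the clock repressor REV-ERB alpha, was at 8.82, 9.35 and 9.88 in R6/2 samples, against 10.70, 10.71, 11.05, 10.71 and 10.95 in WT samples (-1.48 ± 0.25, adjusted p = 0.000216). Every R6/2 sample lay below every WT sample. Steap3, an endosomal iron reductase, fell by 1.34 ± 0.25, Lama3, a laminin chain, by 1.32 ± 0.36, and Ikbke, a kinase of innate immune signalling, by 1.27 ± 0.21. Of the 35 genes, 30 were also called lower in the astrocyte fraction at 12 weeks, Nr1d1 among them (-1.08, adjusted p = 7.9e-06). In that fraction 487 of all 1122 tested astrocyte-enriched genes were called lower.

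Outside the astrocyte-enriched class, 390 genes rose and 417 fell beyond 2-fold. The 8 largest fitted rises without overlap were Cntn6, Galnt13, Acan, Nrn1, Tmem59l, Rit2, Dmrta1 and Arfgef3. Cntn6, a neural cell adhesion molecule of the contactin family, was at 8.78, 9.16 and 9.93 in R6/2 samples, against 4.48, 2.89, 4.94, 3.98 and 4.98 in WT samples (5.04 ± 0.36, adjusted p = 7.15e-09). No WT sample reached 5.60, so Cntn6 was not shown to be above background there. Galnt13, a glycosyltransferase that starts O-linked chains, was at 8.10, 9.03 and 9.24 in R6/2 samples, against 4.6, 3.86, 4.38, 3.24 and 5.08 in WT samples (4.70 ± 0.34). It too was below 5.60 in every WT sample, so the size and rank of both fold changes are not settled.

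Acan, the proteoglycan aggrecan of the extracellular matrix, was at 9.61, 10.21 and 10.63 in R6/2 samples, against 5.62, 5.18, 5.18, 5.70 and 6.76 in WT samples (4.47 ± 0.31, adjusted p = 5.04e-09). Nrn1, the neurite growth protein neuritin, was at 7.75, 9.23 and 9.93 in R6/2 samples, against 4.75, 6.15, 3.97, 3.15 and 4.56 in WT samples (4.41 ± 0.41). For both genes the lowest R6/2 sample was well above the highest WT sample. Most WT values of Nrn1 and some of Acan lay below 5.60, so the sizes of these fold changes are not settled. Tmem59l, a transmembrane protein, rose by 4.23 ± 0.27, Rit2, a Ras-like GTPase known from neurons, by 4.05 ± 0.38, Dmrta1, a DM-domain factor, by 3.66 ± 0.36, and Arfgef3 by 3.63 ± 0.33. For these 4 genes the groups did not overlap, and the WT median was below 5.60, which leaves their sizes open in the same way.

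The 8 largest falls without overlap outside the class were Aplnr, Ppbp, Ccl11, Gda, Saa1, Saa2, Clec1b and Npnt. Aplnr, the apelin receptor of endothelium, was at 5.26, 6.86 and 8.90 in R6/2 samples, against 8.93, 10.48, 9.78, 9.77 and 10.43 in WT samples (-2.85 ± 0.59, adjusted p = 0.00124). The R6/2 samples were widely spread, and the highest of them nearly met the lowest WT sample. Ccl11, the chemokine eotaxin, was at 4.35, 5.16 and 5.37 in R6/2 samples, against 7.50, 8.23, 7.50, 7.65 and 7.45 in WT samples (-2.59 ± 0.31, adjusted p = 3.02e-06). Here all R6/2 samples were under 5.60.

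Ppbp (platelet basic protein) fell by 2.63 ± 0.46 and Clec1b, a receptor of platelets, by 2.16 ± 0.35. Ppbp was at 4.48, 5.52 and 6.52 in R6/2 samples, against 7.14, 8.61, 10.07, 8.13 and 6.97 in WT samples. WT sample 16 was the highest of these. Saa1 and Saa2, serum amyloid A proteins, fell by 2.33 ± 0.41 and 2.21 ± 0.32. They are close copies, so their probe sets may share signal. Gda, guanine deaminase, fell by 2.56 ± 0.33, and Npnt, the matrix protein nephronectin, by 2.10 ± 0.21.

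**Figure D3:**
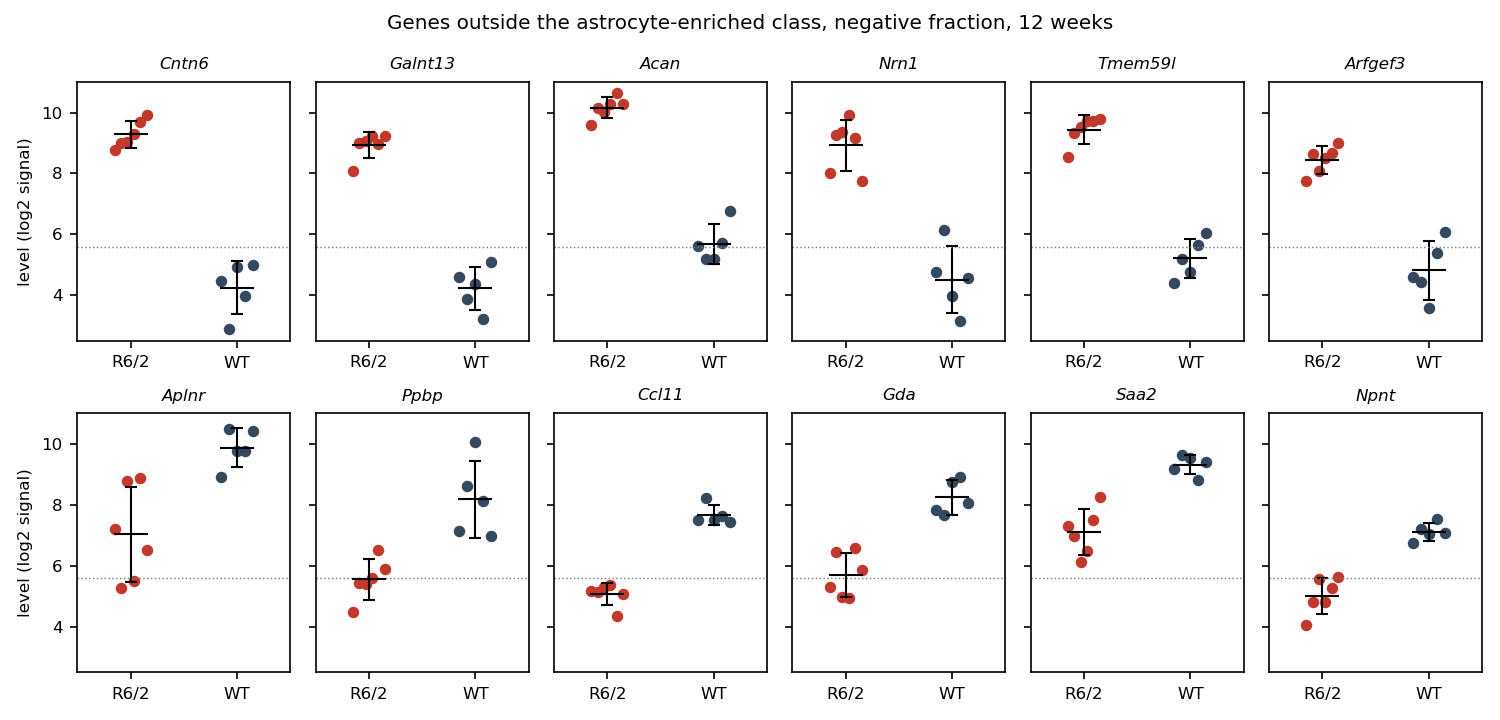
Log2 level of 12 genes outside the astrocyte-enriched class (y axis) in the 6 R6/2 and 5 WT samples of the negative fraction at 12 weeks (x axis). Points are samples, bars are the mean and SD, and the dotted line is the filter level of 5.60. The upper genes lie at 7.74 or above in every R6/2 sample, and the groups do not overlap in any of the 12 panels.

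Genes of the vessel wall were lower. Of 13 mural markers 11 fell and none rose, with a median of -0.86. Des (desmin), an intermediate filament of muscle and pericytes, was at 7.54, 7.79 and 8.93 in R6/2 samples, against 9.18, 9.40, 10.19, 9.82 and 9.12 in WT samples (-1.57 ± 0.23, adjusted p = 3.6e-05). Tagln and Myh11, contractile proteins of smooth muscle, fell by 0.86 ± 0.15 and 1.05 ± 0.18, and Pdgfrb, the pericyte receptor for platelet-derived growth factor, by 0.87 ± 0.20. Rgs5 and Vtn, both pericyte genes, were the 2 markers not called, at -0.27 ± 0.10 (adjusted p = 0.0615) and -0.30 ± 0.12 (adjusted p = 0.0637). The mean level of the list was 11.23, 11.07, 10.92, 10.71, 11.42 and 11.65 in R6/2 samples, against 11.94, 12.09, 12.13, 11.97 and 11.90 in WT samples. The groups did not overlap.

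All 8 tested fibroblast markers fell, with a median of -1.21. Col1a1, a chain of collagen I, was at 8.69, 8.82 and 9.35 in R6/2 samples, against 10.45, 10.06, 10.58, 10.68 and 10.15 in WT samples (-1.46 ± 0.16, adjusted p = 1.28e-06). Slc6a13, a GABA transporter of the meninges, fell by 1.52 ± 0.23, Col3a1 by 1.33 ± 0.28, Mgp, the matrix Gla protein, by 0.85 ± 0.14, and Dcn, decorin, by 0.75 ± 0.24. The list's mean level lay between 8.32 and 9.02 in R6/2 samples, against 9.30 to 10.11 in WT samples.

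Of 21 endothelial markers, all had a negative log2 fold change, from -1.04 to -0.23 with a median of -0.51, and 1 was called. That was Kdr (not called without R6/2 samples 13 or 17 or WT samples 14 or 20), the main receptor for VEGF, at 9.88, 10.31 and 10.88 in R6/2 samples, against 11.30, 11.66, 11.32, 11.02 and 11.44 in WT samples (-1.04 ± 0.33, adjusted p = 0.0263). The groups did not overlap for Kdr. Cldn5, the barrier claudin, was at 12.26, 12.82 and 13.33 in R6/2 samples, against 13.19, 13.38, 13.38, 13.25 and 13.36 in WT samples (-0.51 ± 0.33, adjusted p = 0.275). Pecam1 was at -0.74 ± 0.43 and Flt1, another VEGF receptor, at -0.29 ± 0.20, neither called. One 6-week array set this count. R6/2 sample 7 at 6 weeks had an endothelial mean of 8.88, against 10.76 to 11.13 in the other R6/2 samples of that age, and it widened the spread that all ages share in the fit. Without it, 12 of 21 endothelial markers were called lower (background 12.5%), and with the 12-week groups alone 5. That sample was left out after its values were seen.

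Most called signalling genes of vessels were lower. Of 22 genes of VEGF, Notch and angiopoietin signalling 9 fell (40.9%) and 1 rose (4.55%). Of all tested genes 10.7% were called lower and 15.5% higher. Heyl, a Notch target, fell by 1.47 ± 0.25 and Angpt2, an angiopoietin released by endothelium, by 1.35 ± 0.26. Apln, the ligand of the apelin receptor, rose by 0.83 ± 0.28 (adjusted p = 0.0366), while its receptor gene Aplnr fell. Apln is in the astrocyte-enriched class. Of 15 genes of Wnt and beta-catenin signalling 4 fell (26.7%) and none rose, among them Reck (-0.65 ± 0.19), Foxq1 (-0.77 ± 0.25) and Adgra2 (-0.93 ± 0.32). Reck and Adgra2 encode parts of the endothelial receptor for WNT7. Their targets Axin2 (-0.50 ± 0.19, adjusted p = 0.0661) and Lef1 (-0.42 ± 0.19, adjusted p = 0.108) were not called.

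Of 20 barrier junction and transporter genes 3 fell: Slc38a5, a glutamine transporter (-1.81 ± 0.40), Tfrc, the transferrin receptor (-0.38 ± 0.10), and Marveld2, tricellulin (-1.11 ± 0.38). That is 15%, near the 10.7% of all tested genes called lower. Ocln, occludin, was at -0.67 ± 0.37 and Abcb1a, the P-glycoprotein pump, at -0.35 ± 0.32, neither called. Of 21 genes of BMP and TGF-beta signalling 3 fell, among them Tgfbi (-1.18 ± 0.24) and the inhibitor Smad6 (-0.83 ± 0.22), and the ligand Bmp4 rose (0.66 ± 0.19). The targets Id1 (-0.70 ± 0.34) and the co-receptor Eng (-0.75 ± 0.36) were not called. Without R6/2 sample 7 at 6 weeks the counts of genes called lower were 14 of the VEGF and Notch list, 9 of the Wnt list, 8 of the BMP list and 7 of the barrier list. In that fit 12.5% of all tested genes were called lower. With the 2 WT samples without Y-linked signal left out, 0 of the Wnt genes and 5 of the VEGF and Notch genes were called lower, among 1008 genes lower in all. The Wnt count was 1 without R6/2 samples 13 or 15 or WT samples 14, 18 or 20, and the BMP count 6 without R6/2 sample 19.

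Of 10 leukocyte adhesion and NF-kB genes 4 fell and 1 rose. The count of those lower was 1 without WT sample 14, and 2 without R6/2 samples 13 or 17 or WT samples 16, 18 or 20 or with the 12-week groups alone. Tnfaip3, an NF-kB inhibitor, fell by 1.05 ± 0.19. Lcn2, the acute-phase protein lipocalin 2, was at 4.35, 5.09 and 6.71 in R6/2 samples, against 5.21, 12.62, 9.43, 8.06 and 7.34 in WT samples (-3.09 ± 0.83, adjusted p = 0.00906). WT sample 14 was far above the rest and WT sample 12 within the R6/2 range. Vcam1, an adhesion molecule that is astrocyte-enriched here, rose by 1.14 ± 0.20. Icam1 was at -0.75 ± 0.31 and not called. Of 6 tested markers of border macrophages and blood cells 5 fell, among them Cd3g of T cells (-1.43 ± 0.27), Pf4 of platelets (-2.39 ± 0.50) and Alas2 of red cell precursors (-1.76 ± 0.37). Mrc1 and Ccr2, markers of border macrophages and monocytes, were too dim to be tested.

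**Figure D4:**
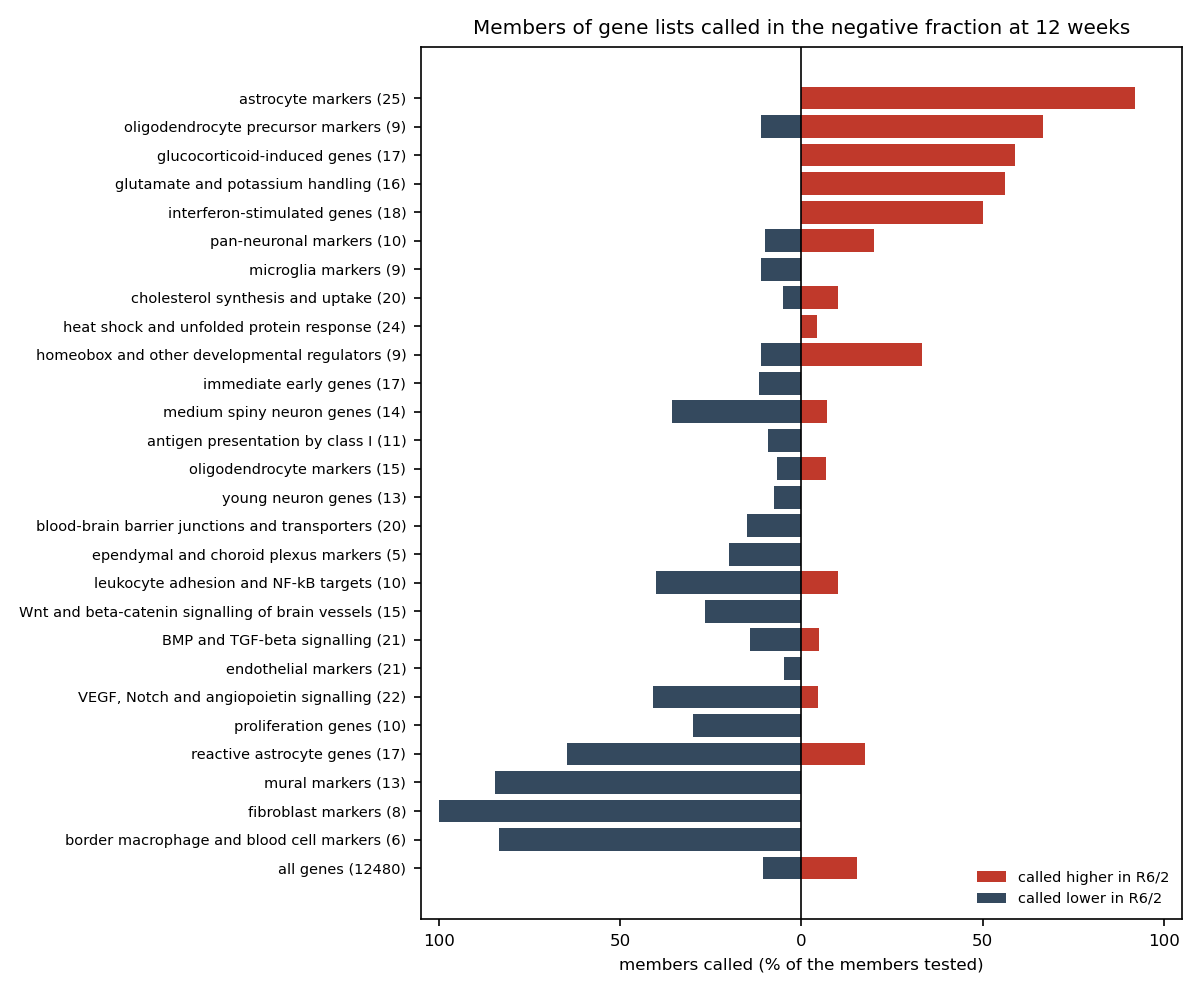
Share of the tested members of each gene list called higher (red, right) or lower (blue, left) in R6/2 in the negative fraction at 12 weeks (x axis, percent), with the number tested in parentheses. Lists are ordered by median log2 fold change, and all 12480 tested genes (15.5% higher, 10.7% lower) are in the lowest row. Fibroblast, mural and border macrophage lists lie to the left, and astrocyte, precursor and glucocorticoid lists to the right.

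Markers of oligodendrocyte precursors were mostly higher. Of 9 precursor markers 6 rose and 1 fell, with a median of 0.84. Lhfpl3 was at 9.39, 10.26 and 10.41 in R6/2 samples, against 8.11, 6.38, 5.46, 6.94 and 8.13 in WT samples (3.10 ± 0.39, adjusted p = 5.64e-06), with no overlap. Gpr17, a receptor of cells committed to differentiate, rose by 1.40 ± 0.41, Ptprz1, a receptor phosphatase that is astrocyte-enriched here, by 1.04 ± 0.24, and Olig2, the lineage transcription factor, by 0.65 ± 0.21. Cspg4, the NG2 proteoglycan of precursors and pericytes, fell by 1.25 ± 0.23, and Pdgfra, the precursor growth factor receptor, missed the threshold at 0.54 ± 0.20 (adjusted p = 0.0507). The mean level of the precursor list was 9.08 to 9.92 in R6/2 samples, against 8.04 to 8.97 in WT samples.

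Of 15 markers of mature oligodendrocytes 1 rose and 1 fell, with a median of -0.22. Sox10, a transcription factor of the whole lineage, rose by 0.78 ± 0.15, and Mobp, a myelin protein, fell by 0.59 ± 0.22 (adjusted p = 0.05 after rounding). Mog, a myelin surface protein, was at 11.73, 12.21 and 12.72 in R6/2 samples, against 12.16, 12.48, 11.98, 12.44 and 12.19 in WT samples and was not called. These samples overlapped over most of their range.

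Pan-neuronal markers showed no common direction, and most called medium spiny neuron genes were lower. Of 10 pan-neuronal markers Map2 (0.74 ± 0.15) and Syp, synaptophysin (0.85 ± 0.26), rose, and Stmn2 (-0.98 ± 0.28) fell. Of 14 tested medium spiny neuron genes 5 fell (35.7%, against 10.7% of all tested genes) and 1 rose. The count of those lower was 2 without R6/2 samples 13, 15 or 17 or WT sample 16, 3 without WT samples 12, 14, 18 or 20, and 2 with the 12-week groups alone. Scn4b, a sodium channel subunit, was at 5.99, 7.21 and 7.53 in R6/2 samples, against 8.62, 8.34, 8.77, 9.27 and 8.05 in WT samples (-1.55 ± 0.24, adjusted p = 7.03e-05), with no overlap. Pde1b, a phosphodiesterase, fell by 0.97 ± 0.25 and Drd1, the D1 dopamine receptor, by 0.69 ± 0.24. Penk, proenkephalin, spread from 4.92 to 8.12 in R6/2 samples, against 6.00 to 8.56 in WT samples, and was not called. Arpp21, which is on the list as a medium spiny neuron gene but is astrocyte-enriched in these fractions, rose by 3.17 ± 0.27.

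Of 13 young neuron genes 1 fell, the transcription factor Sp8 (-1.03 ± 0.37), and Dcx, doublecortin, was at 9.66, 10.54 and 11.41 in R6/2 samples, against 11.16, 10.26, 11.11, 11.40 and 11.48 in WT samples. Of 10 proliferation genes 3 fell: Birc5 (-1.08 ± 0.32), Top2a (-0.74 ± 0.24) and Bub1 (-1.04 ± 0.35). Mki67, the classic marker of dividing cells, was at -0.82 ± 0.43 and not called, and WT samples 12 and 14 lay within the R6/2 range or below it for these genes. The proliferation count was 6 without WT sample 14, 5 without WT sample 12, 1 without R6/2 samples 13, 15 or 17 or WT sample 16, and 0 without WT samples 18 or 20. Of 17 immediate early genes Egr3 (-0.89 ± 0.24) and Ier2 (-0.47 ± 0.15) fell, and Fos was at 0.06 ± 0.09. In the lists with 1 or 2 members called in a direction, among them the mature oligodendrocyte, pan-neuronal, young neuron and immediate early lists, these counts changed to between 0 and 3 when single samples were left out.

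Microglia markers did not move together, with 1 of 9 tested members lower (Selplg, -1.17 ± 0.42) and none higher. Their mean level was 5.18 to 7.10 in R6/2 samples, against 5.42 to 6.33 in WT samples, and 12.73 and 12.74 on average in the sorted microglia of R6/2 and WT mice. P2ry12, a receptor of resting microglia, was at 5.72, 6.44 and 6.70 in R6/2 samples, against 5.18, 5.52, 5.95, 3.50 and 3.29 in WT samples (1.63 ± 0.61, adjusted p = 0.0539). Of 5 tested ependymal and choroid plexus markers Rarres2, the precursor of the chemokine chemerin, fell (-1.05 ± 0.13).

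Interferon-stimulated genes were higher or not called. These genes answer type I interferon and take part in antiviral defence. Of 18 tested, 9 rose and none fell, with a median of 0.36, and in all 9 the R6/2 and WT samples did not overlap. Among all tested genes 15.5% were called higher and 6.2% were higher without overlap. Among all called genes 35.2% had no overlap. Ifit3, an RNA-binding effector, was at 11.46, 11.82 and 12.29 in R6/2 samples, against 9.74, 9.97, 10.57, 9.94 and 10.54 in WT samples (1.70 ± 0.25, adjusted p = 3.22e-05). Usp18, a negative regulator of the interferon receptor, was at 11.12, 11.62 and 11.69 in R6/2 samples, against 10.23, 10.61, 10.44, 10.11 and 10.73 in WT samples (1.09 ± 0.16). Both groups were tight. Mx2, an antiviral GTPase, rose by 1.32 ± 0.17, Irf7, the transcription factor that sustains the response, by 1.33 ± 0.30, Rtp4 by 0.86 ± 0.20 and Oasl2 by 0.81 ± 0.27.

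For most of these genes the effect was smaller than in the sorted astrocytes. The mean level of the list was higher in the negative fraction, at 9.63 in WT and 10.24 in R6/2 samples. In the astrocyte fraction it was 7.75 in WT and 9.28 in R6/2 samples. In that fraction all 18 rose, with a median of 1.42 (28.7% of 12209 genes were called in that fraction, 14.5% higher and 14.2% lower). The difference of the 2 effects was called lower in the negative fraction for 11 genes and higher for 1, Ifit3 (0.79, adjusted p = 0.043). Usp18 rose by 1.09 in the negative fraction against 3.25 in astrocytes (difference -2.16, adjusted p = 1.7e-06), and Oasl2 by 0.81 against 3.14 (difference -2.33, adjusted p = 0.00031). Class I antigen presentation genes, which interferon also raises, showed 1 of 11 lower (Psmb9, -0.77 ± 0.27) and none higher. In astrocytes 6 of the 11 rose. B2m, the light chain of class I molecules, was at 13.15 to 13.31 in R6/2 samples, against 13.09 to 13.26 in WT samples. With the astrocyte marker covariate Usp18 was the interferon gene still called (1.75 ± 0.37). With the endothelial marker covariate 14 of the 18 interferon-stimulated genes were called higher, among 1581 genes higher in all.

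Promoter windows from RefSeq (GRCm38.p6, 250 bases before to 50 after the start) were matched for 14 interferon-stimulated genes. They were searched on both strands for 2 copies of GAAA with any 2 letters between them, the core of the interferon response element. It was found in 8 of the 14, and in 3.49% of all 27025 promoter windows. Of the 5 matched genes that rose, Ifit1 and Ifit3, neighbours on chromosome 19, had 2 matches each. Their windows are shown because both carry the motif as 2 copies at a short distance, with the matches in capitals (plus strand, so the motif reads as its reverse complement).
Ifit1, chr19:34640639-34640938: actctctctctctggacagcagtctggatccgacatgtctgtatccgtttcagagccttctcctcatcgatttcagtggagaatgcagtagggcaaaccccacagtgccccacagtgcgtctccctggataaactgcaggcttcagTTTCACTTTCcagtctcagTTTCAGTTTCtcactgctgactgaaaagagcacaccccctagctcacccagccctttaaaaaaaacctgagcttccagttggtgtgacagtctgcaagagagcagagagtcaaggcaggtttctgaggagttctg
Ifit3, chr19:34583279-34583578: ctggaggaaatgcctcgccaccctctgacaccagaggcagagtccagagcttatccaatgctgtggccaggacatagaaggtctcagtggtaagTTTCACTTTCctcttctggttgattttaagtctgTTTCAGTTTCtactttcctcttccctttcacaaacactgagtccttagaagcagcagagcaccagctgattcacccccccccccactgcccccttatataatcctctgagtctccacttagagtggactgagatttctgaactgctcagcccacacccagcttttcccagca
Of the 5 matched genes that rose 2 had the motif, and of the 9 that were not called 6 did. A match is a description of these letters, and its absence in the windows of Ifit2, Irf7 and Oasl2 says only that the letters are not there.

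Genes induced by glucocorticoids, the adrenal stress hormones, were also higher or not called, with 10 of 17 called higher and none lower (median 0.50). Their mean level was 10.24 to 10.49 in R6/2 samples, against 9.59 to 9.85 in WT samples. Plin4, a lipid droplet protein, was at 9.03, 9.80 and 10.25 in R6/2 samples, against 6.30, 8.43, 6.82, 6.92 and 6.17 in WT samples (2.74 ± 0.33, adjusted p = 3.05e-06). WT sample 14 was the highest WT sample and still below all R6/2 samples. Zbtb16, a zinc finger repressor, was at 9.60, 9.74 and 9.91 in R6/2 samples, against 8.27, 8.88, 8.72, 8.27 and 8.56 in WT samples (1.21 ± 0.11, adjusted p = 7.86e-08).

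Hif3a, a member of the hypoxia-inducible factor family, rose by 2.30 ± 0.19 and Fkbp5, a co-chaperone of the glucocorticoid receptor, by 0.81 ± 0.21. Tsc22d3 (GILZ), a classic target, was at 9.0, 10.33 and 10.69 in R6/2 samples, against 10.05, 10.08, 9.93, 8.65 and 9.84 in WT samples and was not called, nor was the kinase gene Sgk1 (0.30 ± 0.13, adjusted p = 0.116). One sample of each group stood low for Tsc22d3. In the astrocyte fraction 7 of 18 rose, and the difference between fractions was called higher for 2 genes and lower for 1. With the astrocyte marker covariate Hif3a and Zbtb16 stayed called. Hif3a is astrocyte-enriched and Zbtb16 is not. In zQ175 mice at 12 months 5 of 17 glucocorticoid-induced genes fell and 0 rose, and the difference between the models was called higher in R6/2 for 13 genes. The glucocorticoid response motif, GNACA and TGTNC with any 3 letters between them and searched on both strands, was in 2 of 16 matched promoter windows, in none of the 9 of genes that rose, and in 0.463% of all windows.

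Genes of cholesterol synthesis and uptake set the negative fraction apart from astrocytes. In the negative fraction 2 of 20 rose, 1 fell, and the median was 0.05. Without R6/2 sample 11, 5 rose, and without R6/2 samples 13, 17 or 21 or WT samples 12, 14, 16 or 20 none fell. In astrocytes at the same age all 20 fell, with a median of -0.87. The difference between the 2 effects was called for 17 of the 20, higher in the negative fraction in each. Idi1, an isomerase of the isoprenoid pathway, was at 10.24, 10.59 and 10.73 in R6/2 samples of the negative fraction, against 10.56, 10.56, 10.57, 10.99 and 10.76 in WT samples (-0.13 ± 0.10). In astrocytes it fell by 1.45, and the difference was 1.32 (adjusted p = 5.1e-06). Sqle, squalene epoxidase, was at 0.39 ± 0.16 here, against -1.0 in astrocytes (difference 1.38, adjusted p = 0.00015). Hsd17b7, an enzyme of the post-squalene steps, rose by 0.95 ± 0.12 and Tm7sf2, a sterol reductase, by 0.44 ± 0.10, both astrocyte-enriched genes. Stard4, a sterol carrier, fell by 0.44 ± 0.14. Of the 20 genes, 9 are astrocyte-enriched, and the part of the higher astrocyte marker level in these values was not tested for single genes beyond the covariate fit, in which 0 of the 20 were called. The astrocyte fraction also carried oligodendrocyte markers, 8 of 15 of which fell there in R6/2. Their part in the cholesterol values was not tested.

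**Figure D5:**
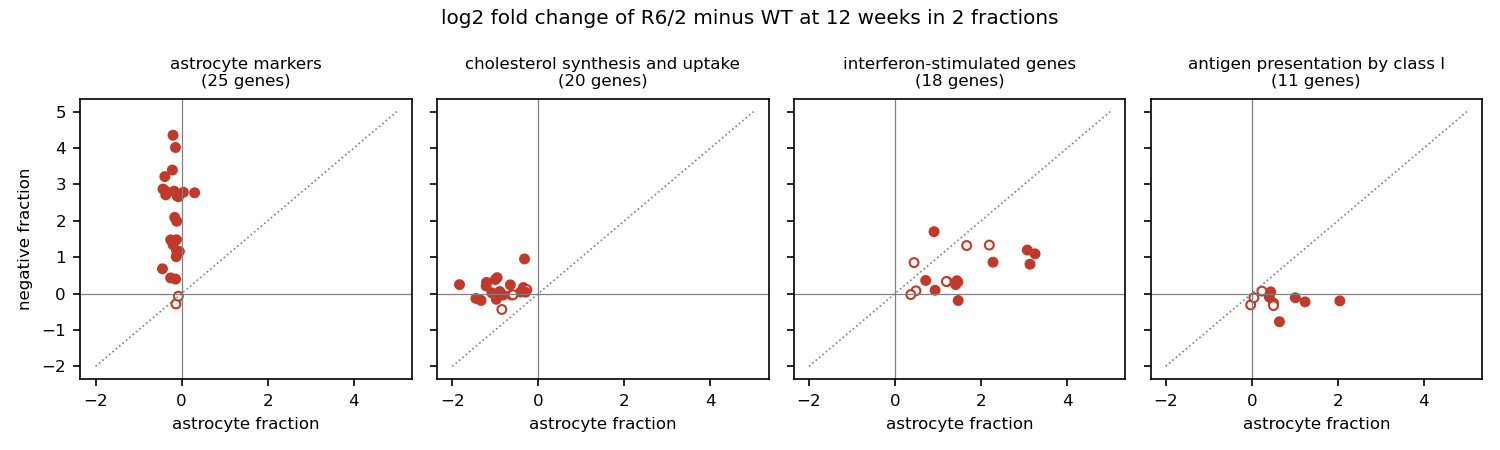
Log2 fold change of R6/2 minus WT at 12 weeks in the astrocyte fraction (x axis) and the negative fraction (y axis) for the genes of 4 lists. Filled points have a called difference between the fractions, and dotted lines mark equal change. All 20 cholesterol genes lie left of 0 on the x axis with a median of 0.05 on the y axis, and 23 of 25 astrocyte markers have a called difference.

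Reactive astrocyte genes did not follow the astrocyte markers. Of 17 tested, 3 rose and 11 fell, with a median of -0.77. The 3 were Serpina3n, a protease inhibitor (4.6 ± 0.40), Gfap, the astrocyte filament (1.34 ± 0.28), and Fkbp5. Serpina3n was at 8.54, 9.39 and 10.41 in R6/2 samples, against 3.95, 6.45, 3.77, 4.85 and 5.61 in WT samples (adjusted p = 6.37e-08), and the groups did not overlap. Most WT values of Serpina3n lay below 5.60, so the size of its rise is not settled. Among those lower were Cp, ceruloplasmin (-0.92 ± 0.19), Cd44, the hyaluronan receptor (-1.03 ± 0.24), Osmr, the oncostatin M receptor (-0.78 ± 0.28), and Lcn2. Vim, vimentin, was at -0.15 ± 0.10 and not called. Of the 24 genes on the list that were measured, 11 are enriched in the negative fraction in WT mice and 3 in astrocytes.

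Genes of glutamate and potassium handling, most of them astrocyte-enriched, rose in 9 of 16 cases and fell in none. Aqp4, the water channel of astrocyte endfeet, was at 8.65, 10.64 and 10.99 in R6/2 samples, against 6.58, 6.73, 4.75, 6.74 and 5.31 in WT samples (4.35 ± 0.49, adjusted p = 1.33e-06). Some WT values of Aqp4 lay below 5.60, so the size of its rise is not settled. Kcnj16 (Kir5.1) rose by 4.34 ± 0.57, Slc1a3, the glutamate transporter GLAST, by 1.16 ± 0.15, and Kcnj10 (Kir4.1) by 0.43 ± 0.13. The sizes differed widely within the class. Among 9 tested homeobox and developmental regulators 3 rose and 1 fell: Six3 (2.51 ± 0.21) and Nkx2-2 (2.23 ± 0.22) were higher and Nkx6-1 (-0.64 ± 0.17) lower. Of 24 heat shock and unfolded protein genes Herpud1 rose (0.34 ± 0.10), and Hspa1a, an inducible chaperone, was at -0.52 ± 0.28.

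At 6 weeks 47 genes were called between genotypes (0.377%), 43 higher (0.345%) and 4 lower (0.0321%), and 862 had an unadjusted p below 0.05. The count rests on the fit: with array quality weights 689 genes were called, and with single samples left out 22 to 70. Of the 43 higher genes 41 were also higher at 12 weeks (95.3% of them, and 2.13% of the 1929), and of the 4 lower genes 1 was. Both ages share 1 estimate of the spread. Cntn6 rose by 2.11 at 6 weeks (adjusted p = 0.011), Tmem59l by 1.82 (adjusted p = 0.0026), Scel by 1.73 (adjusted p = 0.02) and Usp18 by 1.01 (adjusted p = 0.0064). None of the 25 astrocyte markers was called at 6 weeks, with a median of 0.33.

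The difference between the ages was itself called for 530 genes (4.25%), 471 with a higher effect at 12 weeks (3.77%) and 59 with a lower one (0.473%), in limma. Of the 471, 218 were astrocyte-enriched. The largest positive differences were those of Slc39a12 (4.26), Gabrb1 (4.07) and Kcnj16 (4.01), all astrocyte-enriched. Most 12-week WT values of Slc39a12 lay below 5.60, so its place in this order is not settled. The largest negative ones were Pf4 (-3.5), Ppbp (-3.29) and Clec1b (-3.02), all known from platelets. At 6 weeks these 3 platelet genes were at 1.12, 0.66 and 0.86, none called. For Usp18 the effects were alike, at 1.01 and 1.09, and the age difference was not among those called for any interferon gene.

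Against the astrocyte fraction, the effect in the negative fraction differed for 1578 of 12461 genes (12.7%), 1085 higher (8.71%) and 493 lower (3.96%). Of the 1085, 535 were astrocyte-enriched. Of the 483 astrocyte-enriched genes that rose in the negative fraction, 46 were also called higher in astrocytes, 153 were called lower there and 284 were not called. Among all 1122 astrocyte-enriched genes tested in astrocytes, 58 were called higher and 487 lower. Scel rose by 5.22 against 0.17 in astrocytes (difference 5.05, adjusted p = 3.7e-08), Pla2g7 by 4.82 against -0.22, and Slc39a12 by 4.90 against -0.09. For Scel and Slc39a12 these differences carry the dim WT signal of the negative fraction. Called genes shared between the 2 fractions numbered 525 among those higher (27.2% of the negative and 29.6% of the astrocyte list) and 291 among those lower (21.7% and 16.8%).

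Outside the astrocyte-enriched class some of the largest rises were found in both fractions. Galnt13 rose by 4.70 against 3.40 in astrocytes, Nrn1 by 4.41 against 3.84 and Tmem59l by 4.23 against 2.07. Galnt13 averaged 4.16 in WT astrocytes and was below 5.60 in the WT negative fraction, so the sizes in both fractions are over signal not shown to be above background. Most WT values of Nrn1 and Tmem59l in the negative fraction were below 5.60 as well. The difference was called for Galnt13 (adjusted p = 0.037) and Tmem59l (adjusted p = 0.00018) and not for Nrn1 (adjusted p = 0.66). The largest negative differences were Snhg11 (-3.04), H2-Aa (-3.01) and Dcx (-3.00). Snhg11, a noncoding RNA host gene, rose in both, by 1.43 in the negative fraction and 4.47 in astrocytes. Dcx rose by 2.46 in astrocytes and was at -0.53 in the negative fraction. H2-Aa, a class II chain, fell by 1.62 in the negative fraction and was too dim for a test in astrocytes.

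In zQ175 mice at 12 months, 875 of 12628 genes were called in the negative fraction (6.93%), 486 higher (3.85%) and 389 lower (3.08%). Of the 1929 genes higher in R6/2, 231 were higher in zQ175 too (12% of the R6/2 and 47.5% of the zQ175 list), and of the 1339 lower genes 133 were (9.93% and 34.2%). The 2 models have their own WT samples. Of the 1446 genes outside the astrocyte-enriched class that rose in R6/2, 168 rose in zQ175 and 5 fell. Of the 1304 that fell in R6/2, 128 fell in zQ175 and 31 rose. Acan rose by 4.48 in zQ175 against 4.47 in R6/2, Galnt13 by 2.52 and Brinp3 by 2.80. The R6/2 sizes of Acan, Galnt13 and Brinp3 carry the dim signal of the 12-week WT samples. Astrocyte markers did not follow: 1 of 25 rose in zQ175, with a median of 0.00, and their mean level was 9.69 ± 0.34 in zQ175 and 9.59 ± 0.71 in WT samples (SD, n = 4 each).

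The difference between the models was called for 1347 genes (10.7%), 808 with a higher effect in R6/2 (6.44%) and 539 with a lower one (4.3%). Nrn1 had the largest, 5.70 (adjusted p = 0.00033), since it was at -1.30 in zQ175 and not called there. Slc39a12 (4.98) and Gabrb1 (4.88) followed. Most 12-week WT values of Nrn1 and Slc39a12 lay below 5.60, so these sizes and their order are not settled. The largest negative differences were Fcgr2b (-4.31), Ifi209 (-3.62) and Bank1 (-3.32), all microglia-enriched, higher in zQ175 and lower in R6/2. The mean level of the microglia markers was 6.69 to 10.49 in the zQ175 samples, against 5.5 to 6.68 in the WT samples of that age. Every zQ175 sample thus lay above every WT sample, but the lowest zQ175 sample, at 6.69, nearly met the highest WT sample, at 6.68. The zQ175 samples were widely spread, with a mean of 7.77 ± 1.82 (SD, n = 4). All 3 negative differences stayed called when each zQ175 and each 12-month WT sample was left out in turn. Leaving out 1 sample cannot remove a marker level that was higher in all zQ175 samples, and its part in these differences was not tested.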

How the data were processed

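RNA of sorted striatal cells was hybridised to 1-colour arrays. The authors deposited a table of log2 values for 45101 probe sets, and RMA in affy is named per the submitters' processing notes, with versions not given in the sources used here. Probe sets with 1 symbol (34958) were used, the brightest over all arrays standing for a gene, and 932 with several symbols and 9211 with none were left out.

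Groups were compared with limma 3.58.1 in R 4.3.3 (two-sided moderated test, Benjamini-Hochberg adjustment over all genes tested), fitted on the 21 negative-fraction arrays of both ages. The fraction comparison used 22 arrays and the model comparison 37. Genes below the 40th percentile of mean signal (log2 5.60) were left out. The median log2 value of an array lay between 6.496 and 6.651. The number of arrays limits the precision. RMA evens out array distributions, so a change of total RNA is not visible. The tests were tried on simulated data.

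The members and the 28 gene lists were chosen with earlier results of these data known. Of 491 list entries 39 were not measured. Named genes were the largest changes without overlap (8 and 8 outside the astrocyte-enriched class, 5 and 5 within it), up to 3 called members of each list by adjusted p and up to 3 further members, the 3 largest differences each way, and genes used as checks. The further members were chosen after their values were seen. Alternatives covered scaling, filter, probe set choice, array weights, marker covariates, class definition, a replicate block and leaving out samples.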

Additional observations from a re-analysis of the deposited data

Results flagged for a closer look

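Samples that stood apart from the rest of their group by Dixon's test were found 27 times in 344 groups of values checked. Chance flags about 1 in 20 groups. R6/2 sample 11 was the low one 12 times: its mean level was 9.66 for the astrocyte markers and 9.77 for the cholesterol genes, and it was lowest for Galnt13 (8.10), Tmem59l (8.53), Dmrta1 (6.79), Slc39a12 (8.03), Brinp3 (8.75), Aldoc (11.38), Bmp4 (8.93), Aqp4 (8.65), Slc1a3 (11.94) and Sqle (8.96). R6/2 sample 19 stood apart for the fibroblast markers (9.02), the BMP and TGF-beta genes (10.19), Ccl11 (4.35) and Cd3g (8.67). R6/2 sample 21 stood apart for Ptprz1 (11.77), Scn4b (5.99) and Tsc22d3 (9.0).

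Among WT samples, sample 14 stood apart for the glucocorticoid-induced genes (9.85), Ccl11 (8.23) and Nkx2-2 (8.96). WT sample 18 did so for Stard4 (10.44), Lef1 (11.97), Ocln (11.42) and Tsc22d3 (8.65), and WT sample 16 for Rgs5 (13.05).

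The R6/2 effect differed by a test of the difference itself between the ages for 530 genes, between the fractions for 1578 and between the models for 1347. Between ages the largest differences were Slc39a12 (4.26), Gabrb1 (4.07), Kcnj16 (4.01), Pf4 (-3.5), Ppbp (-3.29) and Clec1b (-3.02). Between the negative and the astrocyte fraction they were Scel (5.05), Pla2g7 (5.04), Slc39a12 (4.99), Snhg11 (-3.04), H2-Aa (-3.01) and Dcx (-3.00). Between R6/2 and zQ175 they were Nrn1 (5.70), Slc39a12 (4.98), Gabrb1 (4.88), Fcgr2b (-4.31), Ifi209 (-3.62) and Bank1 (-3.32).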

How the results depend on the processing

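Over 163 named results, 3467 of 3889 values kept direction and call, 320 lost the call, 50 gained it and 52 changed sign. The split stayed between 55.3% and 66.1% higher. With the 12-week groups alone 2154 genes were called, 1248 higher, with 19 astrocyte-enriched genes lower and 839 others higher. The Y-linked covariate left 839 lower (20 astrocyte-enriched, 819 others, 286 negative-enriched), and Kdm5d was at -0.18 and Uty at -0.30. Without WT samples 12 and 20 they were at -0.26 and -0.17. Array weights gave 689 genes at 6 weeks, 2431 for the age difference, 3230 for the fraction difference and 2472 for the model difference, and Mog at 0.27. Astrocyte-enriched over the negative fraction alone gave 53 lower, and a class difference of 2 gave 234 higher and 5 lower, with 275 negative-enriched lower. A filter at the 60th percentile gave 297 and 21 astrocyte-enriched genes and 336 age differences, and median centring 29 genes at 6 weeks. The endothelial covariate left 854 lower (22 astrocyte-enriched, 832 others), with Abcb1a at 0.22, Cldn5 at 0.08 and Flt1 at 0.01. The oligodendrocyte covariate put Mog at 0.10 and Xist at -0.06. The cause of these shifts was not tested.

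With the astrocyte marker covariate 56 genes were called, 37 higher and 19 lower: 12 and 2 astrocyte-enriched, 25 and 17 others, 2 negative-enriched lower. Signs changed for Lama3 (0.44), Stmn2 (0.39), Syp (-0.09), Sp8 (0.38), Birc5 (0.26), Top2a (0.50), Bub1 (0.69), Ier2 (0.27), Stard4 (0.34), Adgra2 (0.10), Aqp4 (-0.04), Abcb1a (0.41), Apln (-1.0), Axin2 (0.42), Cldn5 (0.26), Drd1 (0.07), Eng (0.33), Flt1 (0.24), Gja1 (-0.52), Hspa1a (0.22), Icam1 (0.14), Id1 (0.88), Kcnj10 (-0.32), Lef1 (0.17), Mki67 (1.12), Ocln (0.66), Olig2 (-0.35), Osmr (0.29), P2ry12 (-0.44), Pdgfra (-0.08), Pecam1 (0.91), Sqle (-0.13), Vim (0.20) and Dcx (0.60).

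Leaving out 1 sample at a time gave 2691 to 3702 called genes, 1651 to 2355 higher and 1025 to 1577 lower, with 446 to 546 astrocyte-enriched genes higher, 24 to 43 lower, 1203 to 1809 others higher, 999 to 1534 lower and 338 to 459 negative-enriched lower. At 6 weeks it gave 22 (without R6/2 sample 9) to 70 (without 12-week R6/2 sample 11). The age difference ran from 385 to 900 (without R6/2 sample 11), the fraction difference from 1292 to 2081, and the model difference from 635 (without zQ175 sample 32) to 2445 (without R6/2 sample 21). Mog ran from -0.14 (without R6/2 sample 17) to 0.06, above 0 without R6/2 samples 11, 19 or 21 or WT samples 14 or 18, and Xist was below 0 (-0.09 to -0.02) without R6/2 sample 17 or WT samples 14 or 18.

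Same-numbered samples of the 2 fractions correlated at -0.037 (number 11) to 0.495, and 7 of 11 correlated best with their own number, a hint from the data that they are paired. The labels do not say what a number marks and number 11 did not correlate, so the block stayed an alternative. With a replicate block (correlation 0.213) the fraction difference was called for 2173 genes, against 1578 without it. The dim filter and the absence of detection calls limit what low signal can show.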
